A study of Gallus gallus with 6 samples.

Results

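A set of 47 genes that drive the cell division cycle was followed in cultured chicken embryo dermal myofibroblasts given a blocker of the TGF-beta receptor kinase TGFBR1. The set was chosen by gene symbol, and a gene was represented by the probe set with the highest mean over the 6 arrays. A probe set with the symbol was found for 42 of the 47 genes, out of 13009 genes named on the array, and all 42 passed the filter on dim probe sets, as did 8122 of the 13009. No probe set carried the symbols CCNB2, CDK2, CDC6, MCM4 or AURKA, so the set holds no values under these symbols. RefSeq gives CCNB2 as a synonym of the chicken gene it names CCNB1, which is among the further mitosis genes below. The 42 genes comprise 11 replication genes, 23 mitosis genes, 6 genes of G1/S control, and CCNA2 and MKI67, which serve from S phase to mitosis (S to M). On the array 82 probe sets carry the 42 symbols, and 68 of them passed the filter.

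The cells came from skin explants of brown Leghorn embryos at day 10, kept in medium with 4% serum of fetal cattle and 2% serum of chickens. In the inhibitor group, cultures received TGFBR1 Kinase Inhibitor II, a small molecule that blocks the receptor kinase, at 500 nM in DMSO for 48 h. The control group received 0.1% DMSO alone. Each group had 3 biological replicates numbered 1 to 3, and an inhibitor array and a DMSO array of the same number were treated as a pair. Whether separate embryos gave the replicates is not stated in the labels, and the p-values then cover only the spread among these cultures, which may be technical.

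In G1, D-type cyclins activate kinases that free E2F transcription factors from the retinoblastoma protein, and E2F then switches on genes for DNA synthesis. Origins of replication are licensed by the MCM helicase, which is activated with CDC45, and the new strands are made by polymerases held to DNA by the PCNA clamp. Later, cyclin B with CDK1 drives entry into mitosis, kinetochore proteins and the spindle checkpoint control chromosome attachment, and the anaphase-promoting complex with CDC20 starts chromosome separation. TGF-beta is known to hold many epithelial cells in G1, whereas in fibroblasts its effect on division depends on the setting.

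The values are log2 intensities, and 16356 to 16594 probe sets per array lay at 4 or more. Of 10 fibroblast markers, 10 passed the filter, among them the collagen chains COL1A1 and COL3A1 and the proteoglycan DCN, with DMSO means of 15.5, 15.0 and 14.4, and so did all 5 smooth muscle and contractile markers of myofibroblasts. ACTA2, the actin that defines myofibroblasts, had a DMSO mean of 7.43. Markers of other cells were mostly under the filter, with 1 of 9 on the array passing for keratinocytes, 1 of 7 for melanocytes, 1 of 6 for endothelium, 0 of 5 for skeletal muscle, 4 of 5 for leukocytes and 1 of 3 for neural and Schwann cells. Their summed linear intensity was 84.7 to 118 in DMSO and 78.6 to 121 in inhibitor arrays for keratinocytes, 77.6 to 115 and 57.4 to 82.3 for endothelium, 22.7 to 23.4 and 22.5 to 22.9 for skeletal muscle, and 36.1 to 40.6 and 32.4 to 39.7 for neural and Schwann cells. It was 223 to 423 and 507 to 661 for melanocytes and 287 to 346 and 417 to 565 for leukocytes, without overlap of the groups. The sum of the fibroblast markers was 150000 to 176000 in DMSO and 123000 to 149000 in inhibitor arrays. That of the myofibroblast markers was 77200 to 85000 and 66500 to 73500. These 2 sums were lower in inhibitor arrays, again without overlap, but single markers were split. Of the 10 fibroblast markers, LUM and COL1A2 fell and PDGFRB and TWIST1 rose (limma adjusted p under 0.05). Over all genes tested, 15.1% fell and 16.5% rose. Without the pairing in the fit, PDGFRB passed (limma adjusted p 0.00919), and LUM, COL1A2 and TWIST1 did not (0.0651, 0.189 and 0.0661). The difference was below 0 for 4 of the 10, with a median of 0.014 on the log2 scale. Of the 5 myofibroblast markers, TPM1 fell, also without the pairing (limma adjusted p 0.0101), and 0 rose, beside the same shares of all genes. The difference was below 0 for 3 of the 5, with a median of -0.171, and ACTA2 and MYL9 stood above 0. The melanocyte sum differed through MITF, with the defining genes TYR, TYRP1, PMEL and MLANA near the floor. Among leukocyte markers, PTPRC averaged 7.62 in DMSO and 8.36 in inhibitor arrays, without overlap, and CD74 averaged 5.56 and 6.14. CSF1R averaged 5.26 and 5.05, and CTSS 4.79 and 5.07. None of these 4 differed at an adjusted p under 0.05 in limma, and SPI1 was near the floor. The part of melanocytes and leukocytes in the results was not tested. As a check of RNA integrity, the gap between the 3′ and 5′ control probe sets of ACTB averaged 1.43 ± 0.05 for DMSO and 1.57 ± 0.08 for inhibitor (SD of 3 arrays each, log2). For ACTB the groups did not overlap (p = 0.1 by a two-sided exact permutation test, and 0.3 adjusted over 3 control genes). That test cannot go lower with 3 against 3 arrays. The gap of GAPDH was -0.02 ± 0.07 for DMSO and -0.07 ± 0.05 for inhibitor. That of EF1A was 0.50 ± 0.05 and 0.50 ± 0.03, and the groups overlapped for both genes. The part of the ACTB gap in the results was not tested.

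Transcripts of the 42 measured genes changed little in size, and those that changed mostly fell. Of the 42 genes, 10 fell (23.8%) and 1 rose (2.38%) at an adjusted p under 0.05 (limma with replicate pairs as a block, Benjamini-Hochberg over all probe sets tested). The genes that fell were E2F1, RRM2, CDC45, SMC4, CDC20, CCNA2, PCNA, BUB1, PLK1 and TOP2A, and the gene that rose was the cyclin CCND1. Over all 8122 genes, 15.1% fell, 16.5% rose and 31.6% changed in either direction, against 26.2% of the cell cycle genes. The share of cell cycle genes that changed was thus near that of all genes.

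Sizes were small. The median size of the difference, without its sign, was 0.22 on the log2 scale for the cell cycle genes and 0.24 for all genes tested. None of the 42 genes differed 2-fold or more between the groups, whereas 8.78% of all genes did. The difference was below 0 for 30 of the 42 genes (71.4%), with a median of -0.11, and for 49.0% of all genes, with a median of 0.0074. The inhibitor array was the lower one in all 3 pairs for 22 genes (52.4%, against 32.0% of all genes). Every inhibitor array lay below every DMSO array for 9 genes (21.4%, against 18.8%) and above for 2, CCND1 and PRIM1 (4.76%, against 19.8%).

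The calls depended on the pairing and on single pairs. Without the replicate block, 4 genes fell, namely E2F1, RRM2, PCNA and SMC4 (9.52%, against 7.49% of all genes), and 0 rose in limma, where 15.6% of all genes changed in either direction and 8 of the 42 had an unadjusted p under 0.05. With the block, 3 fell and 0 rose when pair 1 or pair 2 was left out, and 12 fell and 1 rose without pair 3. The genes were not the same ones. Without pair 3, CCND1 and TOP2A were lost, CCND3, CCNE2 and CDK1 joined those that fell, and the gene that rose was CENPF. Calls over the whole array moved as well. Of all probe sets tested, 28.1% were called with all pairs, 11.6% without pair 1, 14.8% without pair 2 and 30.1% without pair 3. E2F1 and RRM2 passed in each of the 3 fits that left out a pair. In these bulk cultures, fewer dividing cells and less of a transcript per dividing cell cannot be told apart.

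**Figure D1:**
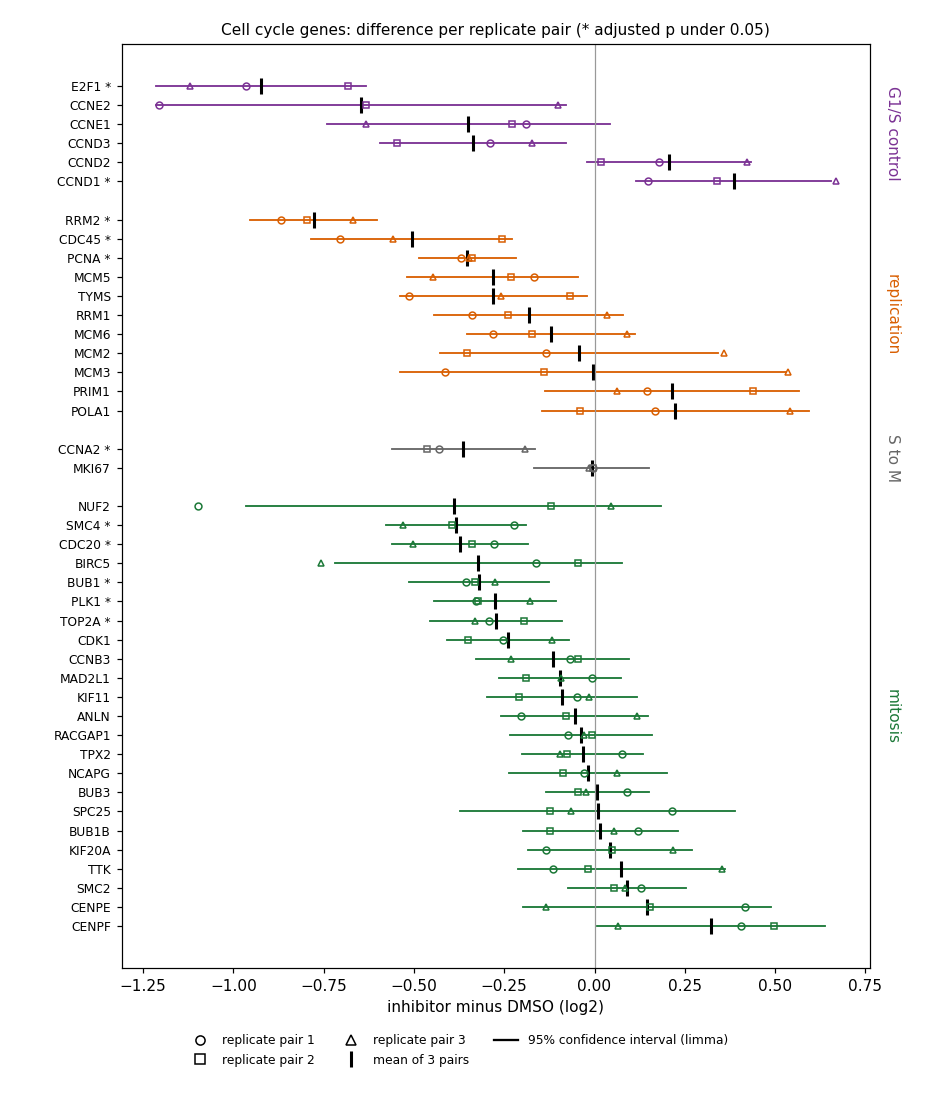
Inhibitor minus DMSO difference (log2) of the 42 measured cell cycle genes, by role. Open symbols are the 3 replicate pairs, the black bar is their mean, and the line is the 95% confidence interval of the limma fit; asterisks mark the 11 genes that passed. E2F1 (-0.92) and RRM2 (-0.78) lie farthest from 0, and most mitosis genes lie close to it.

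E2F1, the transcription factor that switches on genes for DNA synthesis, showed the largest fall of the set. Its log2 intensity was 9.31, 9.57 and 9.49 in DMSO replicates 1 to 3 and 8.35, 8.89 and 8.36 in the same-numbered inhibitor replicates. The groups did not overlap, and the difference was -0.92 ± 0.12 (SE, 3 pairs, limma adjusted p 0.00455), which left 52.7% of the DMSO level. Only 4.25% of all genes tested had a lower difference. The call held without the block (limma adjusted p 0.0199).

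The D-type cyclins, which carry growth signals to the G1 kinases, did not move together. CCND1 was at 12.14, 12.24 and 11.92 in DMSO and at 12.28, 12.58 and 12.58 in inhibitor arrays. All inhibitor arrays were above the DMSO arrays, by 0.15, 0.34 and 0.67 in pairs 1 to 3. The rise of 0.38 ± 0.11 (SE, 3 pairs) passed narrowly, at a limma adjusted p of 0.0499653, and the call was lost without the block (0.0943), with median centring of the arrays (0.0533) and without pair 1, 2 or 3 (0.0576, 0.144 and 0.0736). The difference was 0.50 without pair 1 and 0.24 without pair 3. A dimmer CCND1 probe set rose by 0.50 (limma adjusted p 0.0216, and 0.127 without the block).

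CCND2 was at 12.02, 12.52 and 12.04 in DMSO and at 12.19, 12.54 and 12.47 in inhibitor arrays, and the groups overlapped. Its difference of 0.21 ± 0.09 did not pass (limma adjusted p 0.15), with a 95% confidence interval of -0.02 to 0.43. A CCND2 probe set of nearly the same brightness stood at 0.095 (limma adjusted p 0.285). The dimmest had the opposite sign (-0.16, limma adjusted p 0.298). CCND3 stood at -0.34 ± 0.10, with no overlap between the groups, and did not pass (limma adjusted p 0.0631), but it did with median centring (0.0365) and without pair 3 (0.0332). CCND3 was far from passing without the block (0.217), without pair 1 (0.198) and without pair 2 (0.276).

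The E-type cyclins activate CDK2 at the start of S phase. CCNE2 was at 7.43, 7.54 and 7.03 in DMSO and at 6.23, 6.90 and 6.93 in inhibitor arrays. The groups did not overlap, but the pairs differed by -1.21, -0.63 and -0.10, so that the mean of -0.65 ± 0.23 (SE, 3 pairs) did not pass (limma adjusted p 0.0896, and 0.0164 without pair 3, where it was -0.92). Without the block, without pair 1 and without pair 2 the limma adjusted p was 0.138, 0.334 and 0.237. CCNE1 stood at -0.35 ± 0.16 (limma adjusted p 0.156), again with no overlap. In G1/S control, 1 of 6 genes thus fell, 1 rose and 4 did not pass, where 15.1% of all genes fell and 16.5% rose.

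Among replication genes, RRM2, the regulated subunit of the enzyme that makes deoxynucleotides, fell most. It was at 11.65, 11.87 and 11.73 in DMSO and at 10.78, 11.08 and 11.06 in inhibitor arrays, with a wide gap between the groups. The pairs differed by -0.87, -0.79 and -0.67, with a mean of -0.78 ± 0.07 (SE, limma adjusted p 0.00187, and 0.00798 without the block), which left 58.3% of the DMSO level. Its partner subunit RRM1 stood at -0.18 ± 0.10 and did not pass (limma adjusted p 0.25). TYMS, thymidylate synthase, stood at -0.28 ± 0.10 and did not pass (0.101), with the inhibitor array lower in all 3 pairs.

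PCNA, the sliding clamp of the polymerases, showed the most even fall. Its values were 12.72, 12.82 and 12.69 in DMSO and 12.35, 12.48 and 12.34 in inhibitor arrays. Each pair differed by nearly the same amount, -0.37, -0.34 and -0.35, for a mean of -0.35 ± 0.05 (SE, limma adjusted p 0.00806, and 0.0268 without the block). With the block, the call was lost without pair 1 (0.0597) or pair 2 (0.0526), although the difference hardly moved (-0.34 and -0.36).

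CDC45, part of the active replicative helicase, was at 9.97, 9.84 and 10.13 in DMSO and at 9.26, 9.58 and 9.57 in inhibitor arrays. The groups did not overlap, and the fall was -0.51 ± 0.11 (SE, limma adjusted p 0.0246). The call was lost without the block (0.055) and without pair 1 (0.14).

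The MCM genes, which encode the ring of the helicase, did not pass. MCM5 stood at -0.28 ± 0.09 (limma adjusted p 0.0798), MCM6 at -0.12 ± 0.09 (0.383), MCM2 at -0.04 ± 0.15 (0.865) and MCM3 at -0.0054 ± 0.21 (0.988). MCM2 and MCM3 had pairs of opposite sign: MCM2 differed by -0.13, -0.35 and 0.36 in pairs 1 to 3, and MCM3 by -0.41, -0.14 and 0.54. The genes that start new DNA strands, PRIM1 of primase (0.22 ± 0.14, limma adjusted p 0.306) and POLA1 of polymerase alpha (0.22 ± 0.15, 0.313), stood above 0 and did not pass. In all, 3 of 11 replication genes fell (27.3%, against 15.1% of all genes) and 0 rose (against 16.5%).

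**Figure D2:**
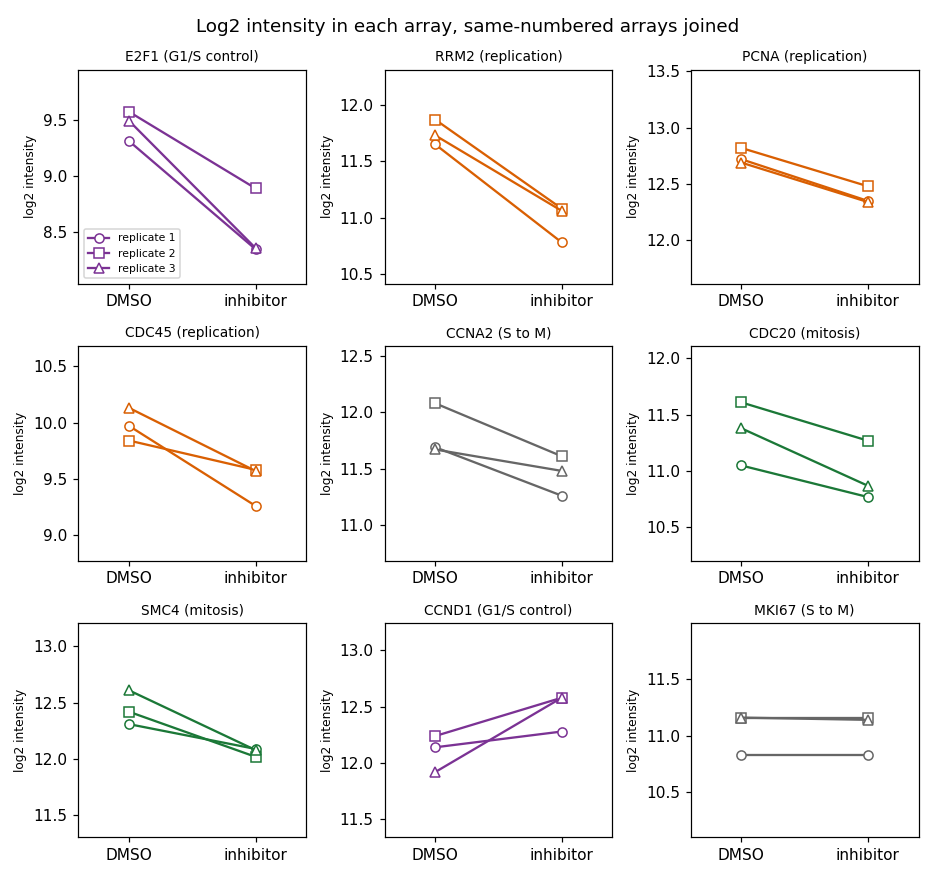
Log2 intensity of 9 cell cycle genes in every array, with same-numbered DMSO and inhibitor arrays joined; each panel spans the same range of log2 units. The lines of E2F1, RRM2 and PCNA fall in all 3 pairs, those of CCND1 rise, and those of MKI67 are flat, with a difference of -0.0082.

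CCNA2 and MKI67 act from S phase to mitosis. CCNA2, the cyclin of S phase and early mitosis, was at 11.69, 12.08 and 11.67 in DMSO and at 11.26, 11.61 and 11.48 in inhibitor arrays. It fell by 0.36 on the log2 scale, to 77.8% of the DMSO level (SE 0.08, limma adjusted p 0.0239), with no overlap between the groups. The call was lost without the block (0.161), without pair 1 (0.133) and without pair 2 (0.128). MKI67, the nuclear protein used as a marker of dividing cells, was at 10.83, 11.16 and 11.16 in DMSO and at 10.83, 11.16 and 11.14 in inhibitor arrays. Its difference was -0.0082 ± 0.06 (SE, limma adjusted p 0.939), and the 95% confidence interval of -0.17 to 0.15 does not include the fitted falls of CCNA2, PCNA, RRM2 or E2F1. The interval of CCNA2 ran from -0.561 to -0.165 and just overlapped that of MKI67, which starts at -0.1673. Differences between genes were not tested.

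Of the 4 measured genes for entry into and exit from mitosis, 2 fell, where 15.1% of all genes fell. CDC20, the activator of the anaphase-promoting complex, was at 11.05, 11.61 and 11.38 in DMSO and at 10.77, 11.27 and 10.87 in inhibitor arrays. The groups overlapped, but each inhibitor array was below its partner, and the mean fall was -0.37 ± 0.07 (SE, limma adjusted p 0.0189). PLK1, a kinase of mitotic entry and spindle assembly, was at 11.33, 11.86 and 11.60 in DMSO and at 11.00, 11.54 and 11.42 in inhibitor arrays, a fall of -0.28 ± 0.07 (0.0334). CDK1, the kinase of mitotic entry, was at 12.58, 12.98 and 12.53 in DMSO and at 12.32, 12.63 and 12.41 in inhibitor arrays. Its difference of -0.24 ± 0.07 missed the threshold narrowly, at a limma adjusted p of 0.0500477, and passed with median centring (0.0249), with the stricter filter (0.0421) and without pair 3 (0.0278). CDK1 was far from passing without the block (0.328), without pair 1 (0.187) and without pair 2 (0.233). CCNB3, a B-type cyclin, stood at -0.12 ± 0.08 (0.362). The calls of CDC20 and PLK1 were lost without the block (0.248 and 0.386), without pair 1 (0.0694 and 0.171) and without pair 2 (0.086 and 0.166).

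Genes of chromosome structure were split. SMC4, an ATPase of condensin, was at 12.31, 12.42 and 12.61 in DMSO and at 12.09, 12.02 and 12.08 in inhibitor arrays, with no overlap. It fell by 0.38 on the log2 scale (SE 0.08, limma adjusted p 0.0194, and 0.0413 without the block), and the call was lost without pair 2 (0.0935). Its partner ATPase SMC2 stood at 0.09 ± 0.06 (0.359) and the condensin subunit NCAPG at -0.02 ± 0.09 (0.9). TOP2A, the topoisomerase that untangles sister chromatids, was at 10.37, 10.77 and 10.64 in DMSO and at 10.08, 10.58 and 10.31 in inhibitor arrays. Its fall of -0.27 ± 0.07 (0.0439) was lost without the block (0.338) and without pair 1, 2 or 3 (0.199, 0.127 and 0.0807), and a slightly dimmer probe set did not pass (-0.30, limma adjusted p 0.0806).

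At the kinetochore and in the spindle checkpoint, 1 of 9 genes fell, where 15.1% of all genes fell. BUB1, a checkpoint kinase, was at 9.63, 10.16 and 9.88 in DMSO and at 9.28, 9.83 and 9.60 in inhibitor arrays, a fall of -0.32 ± 0.08 (SE, limma adjusted p 0.0325). The call was lost without the block (0.332), without pair 1 (0.177) and without pair 2 (0.156), and a dimmer BUB1 probe set stood at -0.10 (0.727). The other checkpoint genes stood close to 0, with BUB3 at 0.0074 ± 0.06, BUB1B at 0.02 ± 0.09, TTK at 0.07 ± 0.11 and MAD2L1 at -0.10 ± 0.07, and none of them passed. The confidence interval of BUB3 ran from -0.14 to 0.15 and that of MAD2L1 from -0.27 to 0.07. CENPF, a large protein of the outer kinetochore, stood highest among the mitosis genes at 0.32 ± 0.13 (limma adjusted p 0.115, and 0.0306 at 0.45 without pair 3). Without the block, without pair 1 and without pair 2 the limma adjusted p was 0.414, 0.377 and 0.413. Dimmer CENPF probe sets stood closer to zero, at 0.05 and 0.07 (limma adjusted p 0.811 and 0.777). The kinetochore gene NUF2 stood at -0.39 ± 0.23 (0.26), a mean carried by pair 1 at -1.10 against -0.12 and 0.05 in pairs 2 and 3.

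None of the 6 genes of the spindle and cytokinesis passed. TPX2, which targets and activates Aurora A, stood at -0.03 ± 0.07, the motor KIF11 at -0.09 ± 0.08, the cytokinesis proteins ANLN at -0.06 ± 0.08 and RACGAP1 at -0.04 ± 0.08, and the motor KIF20A at 0.04 ± 0.09. BIRC5, survivin of the chromosomal passenger complex, stood at -0.32 ± 0.16 (limma adjusted p 0.19), with pair 3 at -0.76 and pairs 1 and 2 at -0.16 and -0.05. A dimmer KIF20A probe set rose by 0.45 (0.0439, and 0.415 without the block). In all, 5 of 23 mitosis genes fell (21.7%, against 15.1% of all genes), 0 rose (against 16.5%) and 18 did not pass.

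Among the genes of the set, the replication median lay below the mitosis median, though not in every pair. In the wider lists given below the order was the reverse. There the median was -0.06 over 37 further replication genes and -0.15 over 50 further mitosis genes. The median difference was -0.18 over the 11 replication genes and -0.06 over the 23 mitosis genes, beside 0.0074 over all genes tested. With a gene taken as the mean of its tested probe sets, the medians were -0.07 and -0.03, and the gap between them shrank from -0.13 to -0.04. In pair 1 the medians were -0.34 for replication and -0.07 for mitosis genes, and in pair 2 they were -0.23 and -0.09. In pair 3 the order turned, with 0.04 for replication and -0.06 for mitosis genes. Replication genes were thus lower than mitosis genes by 0.27 and 0.14 in pairs 1 and 2 and higher by 0.10 in pair 3. The mitosis median hardly varied between pairs, and the replication median did, so that it was -0.10 without pair 1, -0.15 without pair 2 and -0.28 without pair 3. The gap to the mitosis median was -0.02 without pair 1. The ranges of single genes overlapped, from -0.78 for RRM2 to 0.22 for POLA1 among replication genes and from -0.39 for NUF2 to 0.32 for CENPF among mitosis genes.

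**Figure D3:**
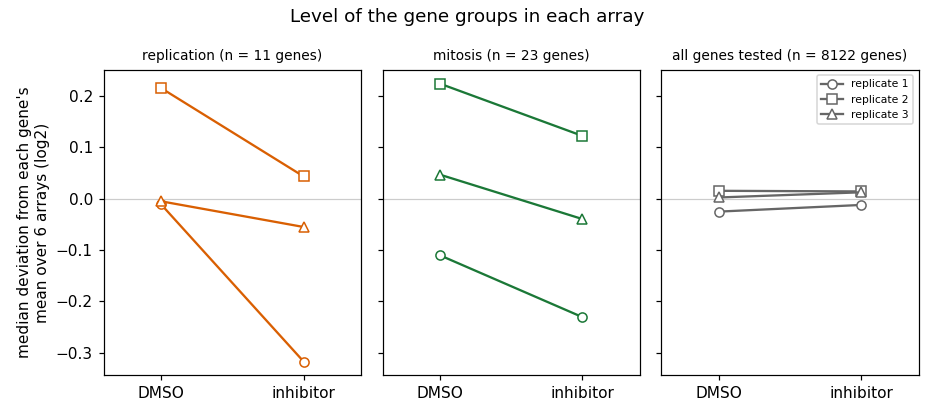
Median over each gene group of the deviation from each gene's own mean over 6 arrays (log2), in every array, with same-numbered arrays joined. Replicate 2 of both groups stands highest for replication and mitosis genes, and the all-gene median is flat; the inhibitor step is smaller than the distance between replicates for mitosis genes.

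For most mitosis genes, the range between replicate numbers was larger than the inhibitor difference. The median deviation of the mitosis genes from their own means was -0.11, 0.22 and 0.05 in DMSO replicates 1 to 3 and -0.23, 0.12 and -0.04 in inhibitor replicates 1 to 3. Replicate 2 was thus the highest and replicate 1 the lowest in both groups, while the median over all genes lay between -0.03 and 0.02 in every array. Replicate 2 was the highest of its group in both groups for 16 of the 23 mitosis genes (69.6%), for 5 of the 11 replication genes (45.5%) and for 24.5% of all genes.

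The range of the 3 pair means had a median of 0.46 over the mitosis genes, against a median difference, without its sign, of 0.10 between inhibitor and DMSO. That range was larger than the inhibitor difference for 22 of the 23 mitosis genes, with SMC4 as the exception, for 6 of the 11 replication genes (54.5%) and for 55.7% of all genes. The replication genes had medians of 0.29 for the range and 0.22 for the difference, and all genes had 0.28 and 0.24. A range of 3 pair means and a difference between group means are unlike measures, so the values of all genes are the comparison to read.

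**Figure D4:**
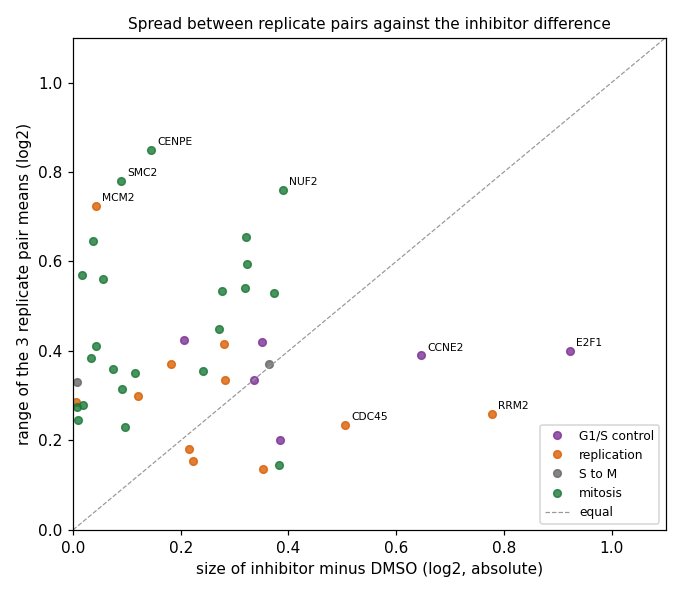
Range of the 3 replicate pair means against the size of the inhibitor difference (both log2) for the 42 cell cycle genes, coloured by role; the dashed line marks equal values. Of the 23 mitosis genes 22 lie above the line, and E2F1 and RRM2 lie far to its right.

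Of the 19 genes with more than 1 tested probe set, the call differed between probe sets for 3, TOP2A, BUB1 and KIF20A. The sign differed for 7, namely CCND2, MCM6, CENPE, RRM1, NUF2, ANLN and TPX2, none of which passed by its brightest probe set. For 14 of the 42 genes the representing probe set is of a design that can also bind related transcripts.

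Other genes of the same pathway, in lists drawn from textbook knowledge, were tested in the same fit. The lists were chosen with earlier results of these data known, so their shares describe these data only. Of 37 further replication genes tested, 4 fell (10.8%, against 15.1% of all genes) and 0 rose (against 16.5%), with a median of -0.06. These were DUT (-0.52 ± 0.08) and TK1 (-0.45 ± 0.11), which serve the thymidine nucleotide supply, and the clamp loader subunits RFC4 (-0.42 ± 0.11) and RFC2 (-0.38 ± 0.07), at limma adjusted p of 0.00838 to 0.0472. Of the 4, RFC2 passed without the block.

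Of 50 further mitosis genes tested, 7 fell (14.0%, against 15.1% of all genes) and 2 rose (4.0%, against 16.5%), with a median of -0.15, so falls were about as frequent as on the whole array. The kinetochore gene CENPN (-0.62 ± 0.13), the kinesin KIF18A (-0.60 ± 0.10) and SGO1, a protector of centromere cohesion (-0.56 ± 0.13), were the largest falls, and WEE1, the kinase that restrains CDK1, rose (0.61 ± 0.11, limma adjusted p 0.0146). Of the 9 calls, WEE1 passed without the block. CCNB1, a cyclin of mitotic entry for which RefSeq gives the synonym CCNB2, stood at -0.12 ± 0.06 and did not pass (0.158).

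Of 20 further regulators of G1/S and of cell cycle transcription tested, 6 fell (30.0%, against 15.1% of all genes) and 0 rose (against 16.5%), with a median of -0.24, and 3 of the 6 passed without the block. MYBL1, a MYB family transcription factor, fell by 2.06 on the log2 scale (SE 0.12, limma adjusted p 0.000666), from 9.42, 9.83 and 9.31 in DMSO to 7.24, 7.63 and 7.51 in inhibitor arrays. E2F7, a repressor among the E2F factors (-0.80 ± 0.16), E2F5, a factor that acts with pocket proteins (-0.77 ± 0.08), and MYC (-0.51 ± 0.14) fell as well. MYBL1 and E2F5 also passed without the block, and E2F7 and MYC did not (0.0999 and 0.145). FOXM1, an activator of mitosis genes, stood at -0.0009 ± 0.10 (0.996). Of 5 tested genes with a CDKN symbol, 2 rose (against 16.5% of all genes) and 0 fell (against 15.1%). Whether the chicken product of each inhibits CDKs was not tested. The genes that rose were CDKN1B (0.59 ± 0.07, limma adjusted p 0.0035) and CDKN2A (0.38 ± 0.08, 0.0228, and 0.255 without the block).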

How the data were processed

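The authors deposited log2 intensities of each probe set, made with GCRMA and Partek 6.4, per the submitters' processing notes, which name no settings and no GCRMA version. The log2 scale was read from the values, which ran from 1.12 to 16.0. Array medians were 3.03, 2.99 and 2.98 in DMSO and 3.00, 2.99 and 2.98 in inhibitor replicates 1 to 3. GCRMA gathers dim probe sets at a floor, and the number of arrays limits the precision.

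After removal of 96 controls from the 38535 probe sets, 16567 passed a filter (4 or more on the log2 scale in 3 or more arrays). Gene names came from the platform annotation, which can be old: 27168 of the remaining probe sets carry 1 symbol, 177 several and 11094 none. None carried CDC2 or CDC45L, the older symbols of CDK1 and CDC45.

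Inhibitor minus DMSO was fitted with limma 3.58.1 in R 4.3.3 (lmFit, eBayes with trend, two-sided), with the replicate number as a block and Benjamini-Hochberg adjustment over 16567 probe sets, and the procedure was tested on simulated data. There it called 42.5% of 113 probe sets changed by 1 on the log2 scale and 74.7% of 87 changed by 2, with 3 false calls. Genes that did not pass may thus have changed. The simulation held far fewer changed probe sets than were called in the data. It took each probe set's estimated spread as the true one. It made no change smaller than 1, whereas the 42 genes all differed by less. Its shares thus need not carry over to these genes. The pairing was set in advance by the replicate numbers in the sample titles. Deviations from group means correlated at 0.63, 0.67 and 0.45 between same-numbered arrays and at -0.45 to -0.14 between others. The deviations within a group cancel out, so positive correlations between same-numbered arrays force negative ones between others. Errors are standard errors of that fit. The exact permutation test used SciPy 1.17.1.

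The members and gene lists were chosen with earlier results of these data known. Values in every array were given for up to 6 called genes of each role with the largest differences, for genes whose call depended on the block, and for CCND1, CCND2, CCNE2, CDC45, PCNA, MKI67, CDK1 and TOP2A. Of the other cell cycle lists, up to 4 called genes were named, and FOXM1 and CCNB1 were added after their values were seen. Promoter and protein sequences were not used here.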

Additional observations from a re-analysis of the deposited data

How the results depend on the processing

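Without the replicate block, limma called 2283 probe sets in place of 4661, and of the cell cycle genes 4 fell and 0 rose, with 1 mitosis gene and 1 G1/S gene among the calls. With no filter on dim probe sets, 2139 probe sets were called, 3 cell cycle genes fell and 0 rose, with 0 mitosis genes and 1 G1/S gene. Without the intensity trend 4 fell and 0 rose, with 0 mitosis genes and 1 G1/S gene, and with median centring 0 rose. The plain paired test without moderation, which rests on the spread of 3 pairs alone, called 12 probe sets and 0 cell cycle genes in any role, though 7 of the 42 had an unadjusted p under 0.05. When 1 pair was left out, the number of genes that fell ranged from 3 to 12 and that of genes that rose from 0 to 1, with 1 to 3 replication genes, 0 to 5 mitosis genes and 1 to 3 G1/S genes, and 1914 to 4979 probe sets were called. The cause was not tested. The replication median was -0.0684 with the mean of a gene's probe sets and -0.276 to -0.103 when 1 pair was left out, against -0.182. The mitosis median was -0.0727 with the stricter filter of 6, -0.0893 with median centring, -0.031 with the mean of a gene's probe sets, and -0.0868 to -0.0426 when 1 pair was left out. No called gene changed sign under any of these settings. The blocked fit gives a single array no weight without its partner, so leaving out a pair equals leaving out either array.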
